A study of Mus musculus with 7 samples.

Results

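Regulatory T (Treg) cells, the Foxp3-dependent CD4 T cells that restrain immune responses, can use extracellular adenosine as one of their suppressive signals. The genes described here are the 6 of the extracellular adenosine pathway, Nt5e, Entpd1, Cd38, Adora2a, Ada and Adk, chosen by symbol, and all 6 were found among the 15815 genes of the table. They were measured by RNA-seq in 7 libraries of YFP+ Treg cells from the mesenteric lymph nodes (mLN) of Rag-/- mice, hosts without endogenous T or B lymphocytes. All hosts had been given WT naive T cells and WT Treg cells 8 weeks earlier, together with YFP+ Treg cells that were WT in 4 libraries (WT 1 to 4) or Hpgd-deficient in 3 libraries (KO 1 to 3). Hpgd encodes the enzyme that inactivates prostaglandins.

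The strain is C57BL/6JRcc for every library. The line field names a floxed Hpgd allele and the Foxp3-YFP-Cre driver in all 7 libraries, WT included, so which of these alleles the WT donor cells carried is not told by the labels. Cre and the YFP used for sorting are both driven from Foxp3. The age of the animals and whether each library came from its own host are not stated either, so the p-values reflect how far these samples scatter, which may be technical in part.

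Adenosine outside the cell is made in steps. CD39, encoded by Entpd1, trims ATP and ADP to AMP, and CD73, encoded by Nt5e, removes the last phosphate to leave adenosine. CD38 opens another route by breaking down NAD to ADP-ribose, which other surface enzymes can turn into AMP. Adora2a encodes the main adenosine receptor of T cells, which raises cAMP. Adenosine deaminase, encoded by Ada, converts adenosine to inosine, and adenosine kinase, encoded by Adk, turns adenosine that has entered the cell back into AMP.

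In mm10 the ectoenzyme genes lie on chromosome 9 (Nt5e, 88327197 to 88372092, plus strand), chromosome 19 (Entpd1, 40612366 to 40741602, plus strand) and chromosome 5 (Cd38, 43868553 to 43912375, plus strand). Adora2a lies on chromosome 10 (75316877 to 75334784, plus strand), Ada on chromosome 2 (163726584 to 163750239, minus strand) and Adk on chromosome 14 (21052574 to 21448569, plus strand). All 6 are annotated as protein-coding, with between 2 transcripts (Cd38 and Ada) and 11 transcripts (Entpd1). Cd38 overlaps an annotated antisense gene, Gm16015, and SmartSeq2 does not mark the strand, so reads of these genes cannot be told apart.

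The bases just upstream of the start sites of Ada and Adk are shown because these 2 genes varied most between libraries and in opposite directions. They are RefSeq sequences of GRCm38.p6, written 5′ to 3′ on the strand of the gene and ending at the base before the start site. Ada is at chr2:163750240-163750339 (minus strand), the first Adk start site at chr14:21052509-21052573 and the second at chr14:21076052-21076151 (both plus strand). Capitals mark the GC box letters GGGCGG on either strand.
Ada: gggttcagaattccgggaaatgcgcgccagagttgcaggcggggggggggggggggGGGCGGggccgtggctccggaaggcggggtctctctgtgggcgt
Adk, first start site: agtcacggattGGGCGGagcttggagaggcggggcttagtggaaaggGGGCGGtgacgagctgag
Adk, second start site: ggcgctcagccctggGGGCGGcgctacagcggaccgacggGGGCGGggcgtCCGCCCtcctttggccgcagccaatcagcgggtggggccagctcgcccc
The first Adk stretch is 65 bases long because the gene Ap3m1, read from the other strand, begins there. It holds 2 matches, the second Adk stretch of 100 bases holds 3, and the Ada stretch of 100 bases holds 1, at the end of a run of G. Over the 250 bases upstream of a start site, 32.7% of 32851 windows held GGGCGG on either strand, so a match is common. The corresponding window of Nt5e held 4 such matches, 2 pairs that overlap each other, and those of Entpd1 and Cd38 held 0. None of the Ada and Adk windows of 250 bases held the cAMP response element TGACGTCA, found in 1.55% of all windows, or TATAAA, found in 12.4%.

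Values are normalized counts, that is, reads divided by a size factor of the library. Between 4135733 reads (KO 3) and 10622507 reads (WT 4) lay behind each library. For Hpgd, the deleted gene, WT 1 to 4 gave 18.7, 9.96, 10.2 and 13.4, and KO 1 to 3 gave 0.759, 2.42 and 5.52, from 56 and 7 reads in total. Every KO value was below every WT value, and the mean of 8.70 lay under the minimum of 10 set for testing. On the first principal component, which held 35.1% of the variance, WT 2 and KO 3 stood farthest from the rest, at opposite ends, so member results are also given without both. Of the 8 Treg and T cell markers, Il2ra, the IL-2 receptor alpha chain gene, was between 3509 and 5620.1 and Ikzf2, the Helios gene, between 4832 and 13872. Foxp3 itself was low, between 56.1 and 161, and present in every library.

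Markers of cells other than Treg cells were present at different levels. Of 8 B cell markers, 6 were matched, and they summed to between 385 and 828 in WT and between 357 and 487 in KO. Most of that sum was Cd79b, between 306 and 737, whereas Ms4a1 was between 4.85 and 8.80, Cd79a between 2.11 and 12.9 and Cd22 between 2.81 and 63.4. Neutrophil and mast cell markers, 5 of 7 matched, summed to 688 in KO 1 and to between 38.6 and 174 in the others. Most of the KO 1 sum was S100a8, at 471, and S100a9, at 152. KO 1 was at 389 in Adora2a, the highest of the libraries, and at 109 in Ada. WT 2, where these markers summed to 60.7, was at 368 in Adora2a and at 109 in Ada. Epithelial markers, 3 of 5 matched, summed to between 571 and 1054 in WT and between 488 and 754 in KO. Most of that sum was Epcam, between 248 and 587, and Cdh1, between 137 and 467. The keratin gene Krt18 was between 0 and 14.7, and Krt8 and Krt19 were not matched. Of the 10 macrophage and monocyte markers 8 had a mean of at least 10, and the summed level of all 10 ran from 209 (WT 3) to 2070 (WT 2) in WT and from 840.2 to 1881 in KO. Among them Fcgr1 was low, between 0 and 0.703 in WT and between 9.87 and 16.5 in KO, also without overlap. Erythroid and platelet markers, 5 of 10 matched, summed to between 497 and 2037 in WT and between 68.3 and 199 in KO, without overlap. This separation lay in the globin genes Hba-a1, Hba-a2 and Hbb-bt. Alas2, between 2.28 and 19.0, and the platelet gene Itga2b, between 0 and 6.07, overlapped between genotypes. The part of these cell types in the member results was not tested.

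**Figure D1:**
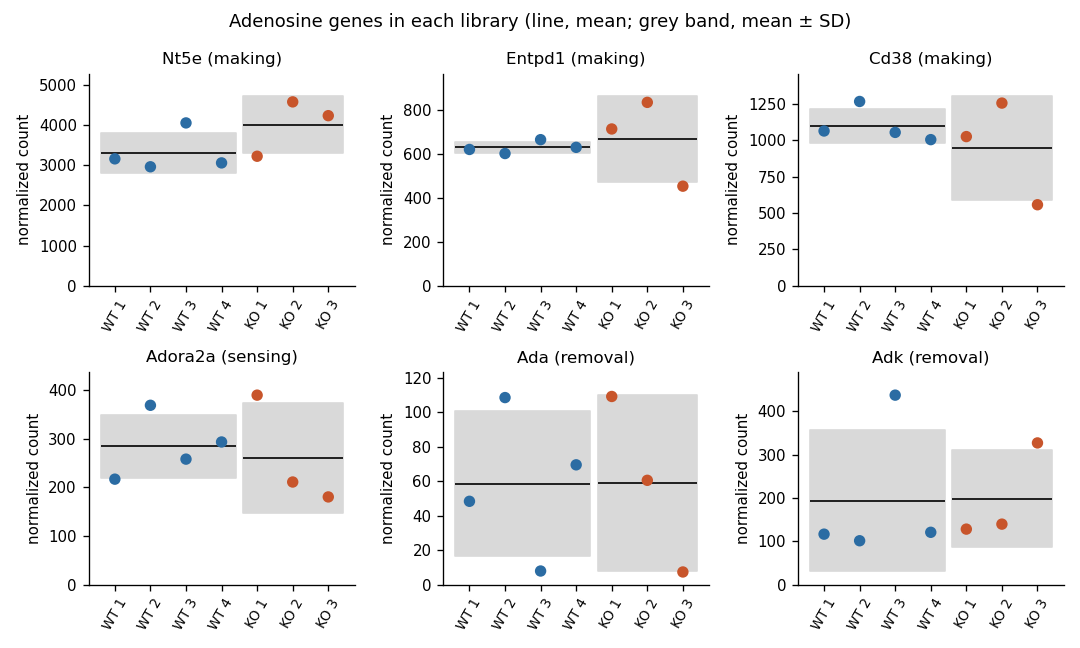
Normalized count (linear axes from 0) of each of the 6 genes in the 4 WT libraries (blue) and the 3 KO libraries (orange). The line is the group mean and the grey band the mean ± SD. WT and KO overlap in all 6 panels, and WT 3 and KO 3 hold the lowest Ada and the highest Adk values.

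Nt5e was the most abundant of the 6 genes, and its difference between genotypes did not pass the test. WT 1 to 4 gave 3160.4, 2963, 4055 and 3059.6, and KO 1 to 3 gave 3225, 4578 and 4235. WT 3 lay above KO 1, so the groups overlapped. WT averaged 3309 ± 503 (SD, n = 4) and KO averaged 4013 ± 703 (SD, n = 3). On the log2(normalized count + 1) scale, on which all fold changes are given, KO against WT was 0.27 (SE 0.20, 95% interval -0.16 to 0.71, limma adjusted p = 1.00). It was 0.18 with WT 2 and KO 3 both removed, 0.17 without KO 2 and 0.42 without KO 1. In sorted bulk cells, fewer cells of a type and less RNA per cell cannot be told apart, here and for the genes that follow.

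Entpd1, whose product supplies the AMP for CD73, was even across the WT libraries, at 622, 603, 666 and 631. In KO it was at 715, 836 and 454, so the KO libraries fell on both sides of all WT values. WT averaged 630.4 ± 26.5 (SD, n = 4), KO averaged 668 ± 195 (SD, n = 3), and limma put the log2 fold change at 0.04 (SE 0.23, 95% interval -0.45 to 0.53, limma adjusted p = 1.00). Leaving out both WT 2 and KO 3 gave 0.27, and leaving out KO 3 alone gave 0.29.

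For Cd38, WT 1 to 4 gave 1064, 1267, 1054 and 1004, while KO 1 to 3 gave 1025, 1255 and 557. A single library, KO 3, was low, and the other KO values fell within the WT range. WT averaged 1097 ± 116 (SD, n = 4), KO averaged 946 ± 356 (SD, n = 3), and the KO-to-WT difference was -0.29 log2 units (SE 0.26, 95% interval -0.84 to 0.27, limma adjusted p = 1.00). Without KO 3 the estimate turned to 0.054, and without both WT 2 and KO 3 to 0.12. The KO 3 value rested on 303 reads, with a 95% exact Poisson interval of 496 to 624 in normalized counts, which lies below the other 6 values. That interval covers counting error only, not the scatter between libraries. KO 3 was also the library with the fewest reads, 4135733, and the part of depth in its Cd38 value was not tested.

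For Adora2a, the receptor gene, WT 1 to 4 gave 217, 368, 258 and 293, whereas KO 1 to 3 gave 389, 211 and 180.2. KO 1 held the highest and KO 3 the lowest value of all 7 libraries. WT averaged 284 ± 64.4 (SD, n = 4), KO averaged 260.1 ± 113 (SD, n = 3), and they differed by -0.18 log2 units (SE 0.30, 95% interval -0.84 to 0.47, limma adjusted p = 1.00). It was 0.040 without KO 3 and 0.17 without both WT 2 and KO 3. Of the other adenosine receptor genes, Adora3 was between 1.84 and 15.8, with 64 reads in all libraries together. Adora2b had 24 reads in all and was listed at 0 in WT 1, WT 3, WT 4 and KO 3. Both lay below the mean of 10 set for testing.

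Ada, which removes adenosine by deamination, varied most. WT 1 to 4 gave 48.4, 109, 7.92 and 69.6, and KO 1 to 3 gave 109, 60.6 and 7.36. WT 3 and KO 3 were far below the other 5 libraries, on 7 and 4 reads, with 95% exact Poisson intervals of 3.18 to 16.3 and 2.00 to 18.8 in normalized counts. The next lowest library, WT 1, had 44 reads and an interval of 35.2 to 65.0, which overlaps neither of those. These intervals cover counting error only, since amplified reads without molecular identifiers are not independent molecules. The genotype means were nearly equal, 58.6 ± 42.0 (SD, n = 4) for WT against 59.1 ± 51.0 (SD, n = 3) for KO. The log2 fold change was -0.16 (SE 0.93, 95% interval -2.17 to 1.85, limma adjusted p = 1.00). Its sign depended on single libraries, with 0.94 without KO 3, -0.92 without WT 3 or without KO 1, 0.29 without WT 2, 0.078 without WT 4 and 1.39 without both WT 2 and KO 3.

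Adk, the kinase that salvages adenosine inside the cell, showed the reverse. WT 1 to 4 gave 117, 101, 438 and 121, and KO 1 to 3 gave 128, 139.8 and 327. WT 3 and KO 3, the libraries lowest in Ada, were the highest in Adk, and the other 5 libraries lay between 101 and 139.8. The 387 reads of WT 3 gave an interval of 395 to 484, and the 178 reads of KO 3 gave 281 to 379, in normalized counts. WT averaged 194 ± 163 (SD, n = 4), KO averaged 198 ± 112 (SD, n = 3), and the difference was 0.19 log2 units (SE 0.49, 95% interval -0.88 to 1.25, limma adjusted p = 1.00). The estimate was -0.24 without KO 3, 0.67 without WT 3, 0.43 without KO 1, 0.37 without KO 2, -0.025 without WT 2, 0.042 without WT 1, 0.059 without WT 4 and -0.45 without both WT 2 and KO 3.

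The ratio of Adk to Ada, each per kb of exon, shows this contrast within each library. WT 1 to 4 gave ratios of 0.566, 0.219, 12.98 and 0.408, and KO 1 to 3 gave 0.276, 0.542 and 10.4. In WT 3 and KO 3 the kinase gene was therefore above the deaminase gene, and in the other 5 libraries below it. These libraries share the replicate number 3 and differ in genotype, so the contrast did not follow the genotype labels. Their summed macrophage markers were 209 in WT 3 and 1311 in KO 3, against 840.2 to 2070 in the others, and their reads were the lowest of each genotype, at 6129064 and 4135733. The parts of depth and of macrophage RNA in this contrast were not tested. With the longest transcript as the length the ratio was 22.0 and 17.7 in WT 3 and KO 3 and between 0.371 and 0.958 elsewhere.

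**Figure D2:**
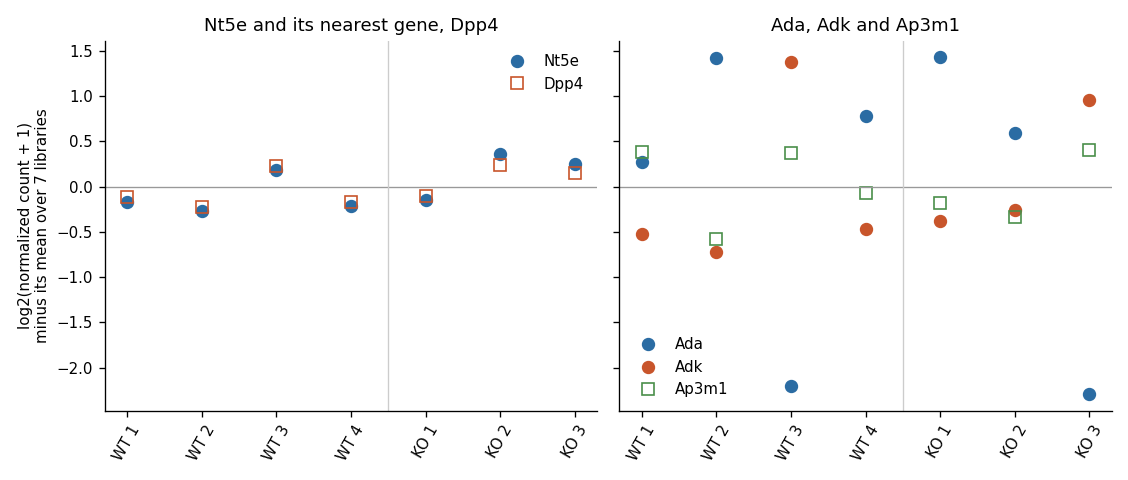
Log2(normalized count + 1) minus its mean over the 7 libraries, for Nt5e and Dpp4 (left) and for Ada, Adk and the neighbouring gene Ap3m1 (right), with a vertical line between WT and KO. Dpp4 lies close to Nt5e in every library, whereas Ada is lowest where Adk is highest, in WT 3 and KO 3.

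Ap3m1, which encodes a subunit of an adaptor complex for vesicle traffic, begins 65 bases from Adk on the other strand. WT 1 to 4 gave 660.0, 338, 654 and 482, and KO 1 to 3 gave 446, 401 and 668. WT 3 and KO 3 were high for this gene too, but WT 1 was as high. It was named after its values had been seen.

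Ada and Adk varied between libraries more than most genes of similar level. The within-genotype SD on the log2 scale was 1.74 for Ada and 0.89 for Adk, against a median of 0.41 over the 11787 tested genes. Of the 500 genes nearest in mean level, 96.8% had a smaller SD than Ada and 97.8% a smaller SD than Adk. The SD was 0.23 for Nt5e, 0.29 for Entpd1, 0.40 for Cd38 and 0.45 for Adora2a, larger than in 31.0%, 47.8%, 80.8% and 73.6% of genes of similar level.

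**Figure D3:**
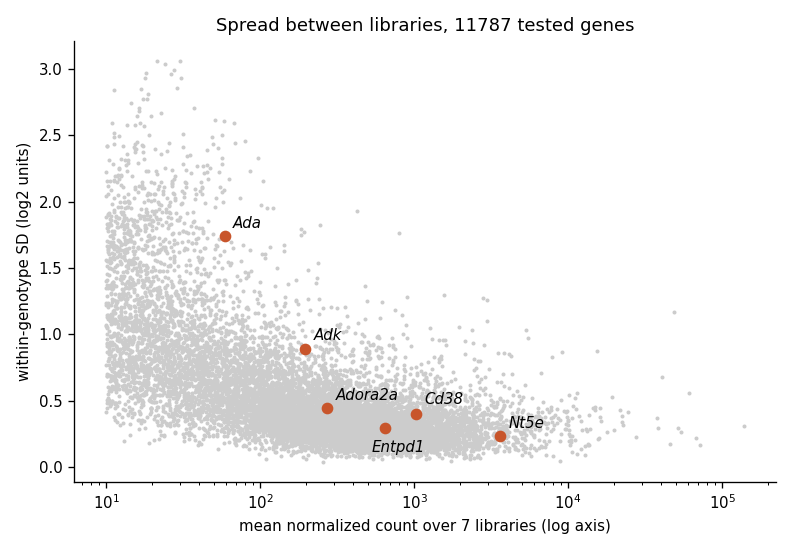
Within-genotype SD in log2 units against mean normalized count (log axis) for the 11787 tested genes (grey), with the 6 adenosine genes in orange. Ada, at 1.74, and Adk, at 0.89, sit near the upper edge for their level, and Nt5e, at 0.23, sits within the bulk.

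Levels of different genes were compared per kb of annotated exon. Nt5e was at 419.8 ± 76.5 normalized counts per kb (SD, n = 7), above Cd38 at 265 ± 60.5, Entpd1 at 116 ± 20.8, Adora2a at 89.4 ± 26.3, Ada at 29.4 ± 20.9 and Adk at 23.0 ± 15.5. Nt5e was above Cd38 with no overlap, and Adora2a above Ada with no overlap. Entpd1 and Adora2a overlapped in range, as did Ada and Adk, so their order was not separated beyond the spread. Within libraries, Entpd1 was above Adora2a in 6 of 7 and Ada above Adk in 5 of 7. Cd38 and Entpd1 also overlapped in range, though Cd38 was higher in 7 of 7 libraries. Nt5e stood above 94.4% and Cd38 above 90.7% of 15596 genes with a length, while Adk stood above 49.8%. The length matters for the means of Nt5e and Adk. With the longest transcript in place of the exon union, Nt5e was at 904 ± 165 per kb. Adk was then at 46.2 ± 31.1 and Ada at 34.8 ± 24.8, but Adk was above Ada in only 2 of 7 libraries.

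Within the making step, CD73 transcript outweighed CD39 transcript in every library. Per kb of exon, Nt5e over Entpd1 came to 3.299, 3.19, 3.95 and 3.14 for WT 1 to 4, and to 2.93, 3.55 and 6.05 for KO 1 to 3. KO 3 had the highest ratio, KO 1 the lowest, and KO 2 lay within the WT range.

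No member passed the test between genotypes. The count was 0 of 6 at a limma adjusted p of 0.05, where 0% of the 11787 tested genes passed. It was 0 of 6 at an unadjusted p under 0.05 as well, where 1.79% of all tested genes lay (0.781% higher and 1.01% lower in KO), and 0 of 6 with limma-voom at either threshold, where 0% and 1.56% of all tested genes lay. The groups did not overlap for 0 of 6 members and for 3.65% of all tested genes. All 6 members were above the filter of a mean of 10. The estimates were positive for 3 of 6 members, and their median was -0.06 log2 units against 0.01 over all tested genes. The 95% intervals reached 0.44 log2 units to either side of the estimate for Nt5e and 2.01 for Ada.

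**Figure D4:**
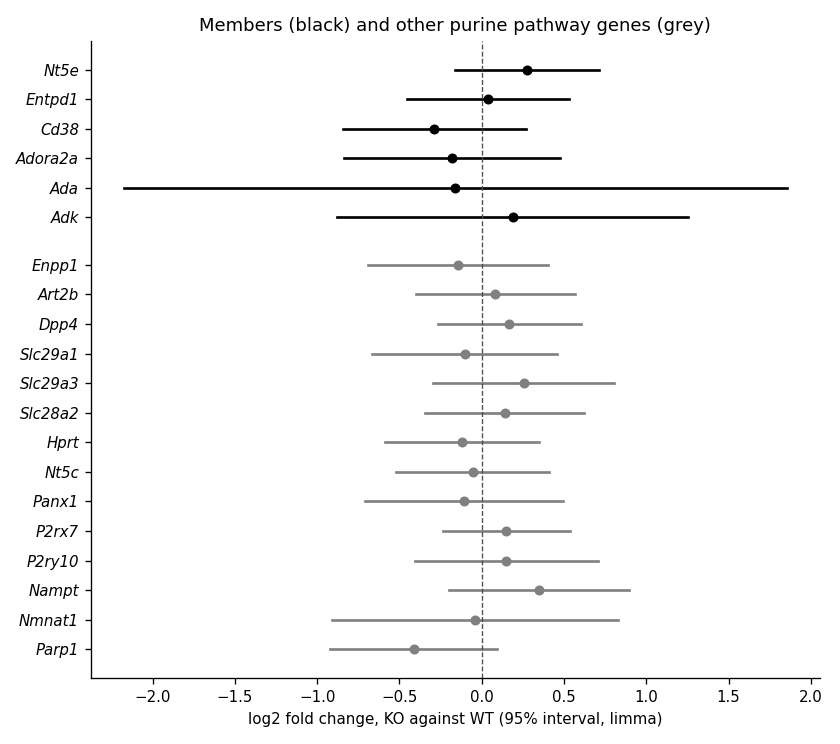
Log2 fold change of KO against WT with its 95% interval from limma, for the 6 adenosine genes (black) and 14 other tested purine pathway genes named by abundance (grey). All intervals include 0, and that of Ada, from -2.17 to 1.85, is the widest.

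The wider purine pathway was followed in 69 other genes, of which 55 were matched and 43 tested. None of the 43 passed at a limma adjusted p of 0.05 and 0 did at an unadjusted p under 0.05, while limma-voom passed 0 and had 1 at an unadjusted p under 0.05, near the 1.56% of all tested genes. Estimates were positive for 21 and negative for 22, and their median was -0.04 log2 units. The groups did not overlap for 2 of 43 genes, or 4.65%, near the 3.65% of all tested genes. These were Mtap, which salvages adenine from methylthioadenosine, and P2rx4, an ATP-gated channel gene, both named after their values had been seen. For Mtap, WT 1 to 4 gave 201, 241, 179.8 and 141, and KO 1 to 3 gave 268, 295 and 259, a difference of 0.54 log2 units with a limma adjusted p of 1.00. P2rx4 averaged 331 ± 13.4 for WT (SD, n = 4) and 293 ± 22.7 for KO (SD, n = 3), and in that order the means of the genes below follow.

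Among surface enzymes that act beside CD39 and CD73, 6 of 12 genes were tested, 4 with higher and 2 with lower estimates in KO. Art2b, which attaches ADP-ribose from NAD to surface proteins, was the most abundant per kb. It averaged 1029.8 ± 228 and 1082 ± 198. Dpp4, encoding the surface peptidase CD26, which binds adenosine deaminase in humans, was at 692 ± 105 and 776 ± 94.7. Enpp1, which can form AMP from ADP-ribose or ATP, was at 279.8 ± 38.7 and 256 ± 62.2.

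Nucleoside transporters were led by Slc28a2, the concentrative purine nucleoside carrier, at 1053 ± 245 and 1134 ± 88.9. The equilibrative carrier genes Slc29a1 and Slc29a3 averaged 392 ± 102 and 170.1 ± 17.6 for WT against 362 ± 79.9 and 203 ± 26.0 for KO. The 4 tested members split into 2 higher and 2 lower estimates.

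Enzymes of purine handling inside the cell split into 8 higher and 9 lower estimates among 17 tested genes. Hprt, which salvages hypoxanthine and guanine, was at 988 ± 170.2 and 916 ± 212. Nt5c, a cytosolic nucleotidase gene, was at 704 ± 160.4 and 667 ± 64.6.

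On the ATP side 7 of 15 genes were tested, 3 with higher and 4 with lower estimates. P2rx7, the ATP-gated channel through which extracellular ATP and NAD can kill T cells, averaged 1813 ± 132 and 2017 ± 236. P2ry10, listed here for its purinergic receptor family name and not as an ATP sensor, was at 2351 ± 827 and 2494 ± 237. Panx1, a channel that releases ATP, was at 879 ± 373 and 769 ± 63.1. All 9 genes of NAD supply and use were tested, 4 higher and 5 lower. There Nampt, the rate-limiting enzyme of NAD salvage, was at 854 ± 248 and 1062 ± 192, Nmnat1 at 183 ± 68.5 and 175 ± 76.6, and Parp1, a major consumer of NAD, at 659 ± 135 and 496 ± 111.

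The genes most like each member were taken by the smallest root mean square (RMS) difference of centred log2 values over the 7 libraries, as a description with no test. For Nt5e these were Dpp4, with an RMS difference of 0.07 log2 units, and Sec23a, also at 0.07, against a median of 0.40 over all genes compared. For Dpp4, WT 1 to 4 gave 664, 616, 847 and 641 and KO 1 to 3 gave 670.1, 853 and 804, highest in the same libraries as Nt5e (WT 3, KO 2 and KO 3). Its rank for Nt5e was 1 under both other pseudocounts and TMM scaling and between 1 and 6 when single libraries were left out. For Cd38 the nearest genes were Chst10 and Kcnk6, for Entpd1 they were Dnajc13 and Cnot10, and for Adora2a they were Ppp6r1 and Cyth1, with RMS differences from 0.06 to 0.11. Adk was nearest to Nav2 (0.25) and Edem3 (0.30), and Ada to Dscam (0.59) and Lif (0.61) against a median of 1.48 for Ada. Without WT 3, Nav2 fell to rank 82 for Adk. Of these 12 genes, between 4 and 7 remained among the nearest 2 when 1 library was left out.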

How the data were processed

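The authors deposited 1 table of normalized signal, with a value for each gene in each of 7 libraries. SmartSeq2 libraries from 10 ng of RNA were read on a NextSeq 500 and demultiplexed with bcl2fastq2 2.20, per the labels' protocols. Per the submitters' processing notes, mm10, DESeq2, Partek 6.6, kallisto 0.44, CASAVA 1.8 and R 3.3.1 were used, in roles that are not given. In each library 100% of the deposited values minus 1 were whole multiples of 1 step, within 0.01 of a read, so normalized counts are values minus 1. Recovered reads are values minus 1 divided by that step.

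The 11787 genes with a mean of at least 10 were modelled on log2(normalized count + 1) in limma 3.58.1 (R 4.3.3) over all 7 libraries, without covariates, using a trended prior and Benjamini-Hochberg adjustment over all tested genes. The code was tested on simulated data. The smallest chi-square per degree of freedom between library pairs was 12.8, so no library was a duplicate. GENCODE M21, on GRCm38 (mm10), gave lengths and coordinates, and sequences from RefSeq (GRCm38.p6), in which 5 of 6 members had an upstream window. The members and lists were chosen with earlier results of these data known. Beside the members, the text names the 3 most abundant genes per kb of each of 6 pathway lists, all adenosine receptors (1 gene that the rule names is not reported here), and the 2 genes nearest to each member among genes with a mean of at least 100. Alternatives covered pseudocounts, scaling, filters, prior, voom, leaving out libraries and a block on the replicate number.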

Additional observations from a re-analysis of the deposited data

Results flagged for a closer look

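Within the 4 WT libraries a single value stood apart from the other 3 for 2 of the 23 genes examined, by Dixon's criterion at the 95% level, which chance alone meets in about 1 in 20 groups. Adk was at 438 in WT 3, with the other WT libraries between 101 and 121. For Adora2b, WT 2 gave 13.6, and no read was counted in WT 1, WT 3 or WT 4. With those libraries tied, any read in WT 2 meets the criterion, so the rate of 1 in 20 does not apply to this gene.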

How the results depend on the processing

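None of the 6 members or 43 other pathway genes passed under any of 17 alternatives. Over 23 tested genes the adjusted p ran from 0.921 to 1.00. Of 391 alternative fold changes, 351 kept their direction and 40 turned, 23 of them when 1 library was left out, and 10 genes, Nt5e among them, kept 1 direction throughout. The filter and prior alternatives cannot change a fold change, so their values kept direction by construction. The replicate block gave the same fold changes as leaving out WT 4, so these 2 alternatives are not separate checks of direction. Over all genes 0 passed, against 3 with the replicate block and 4 without both WT 2 and KO 3. Under the replicate block Ada was at 0.078 and Nmnat1 at 0.12. Deviations of same-numbered libraries correlated at -0.04 to 0.09, within the range of the other pairs, -0.20 to 0.20. Whether same-numbered libraries share more than a number was not tested. With limma-voom Ada was at 0.20. Without both WT 2 and KO 3 the values were Ada 1.39, Adk -0.45, Cd38 0.12, Adora2a 0.17, Enpp1 0.029, Slc28a2 -0.029, Slc29a1 0.078, Nt5c 0.019, P2ry10 -0.058 and Panx1 0.20. Without both WT 3 and KO 3, an alternative chosen after seeing the data, they were Ada 0.18, Cd38 0.037, Adora2a 0.0025 and Enpp1 0.10. Leaving out 1 library gave ranges of 0.17 to 0.42 for Nt5e, -0.92 to 0.94 for Ada, -0.24 to 0.67 for Adk, -0.51 to 0.040 for Adora2a, -0.53 to 0.054 for Cd38, -0.14 to 0.29 for Entpd1, -0.056 to 0.20 for Art2b, -0.33 to 0.018 for Enpp1, -0.38 to 0.25 for Nmnat1, -0.13 to 0.093 for Nt5c, -0.016 to 0.32 for P2ry10, -0.32 to 0.15 for Panx1, -0.050 to 0.22 for Slc28a2 and -0.27 to 0.045 for Slc29a1. The longest transcript as gene length gave 904 per kb for Nt5e, 153 for Entpd1 and 46.2 for Adk. The cause of these changes was not tested. The edgeR and DESeq2 fits planned on recovered reads were not run, and limma-voom was the only test run on those reads. Ada rests on 4 reads in KO 3 and 7 in WT 3.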
